A study of Mus musculus with 21 samples.

Results

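Mice given irisin before MPTP were compared with untreated control mice, to see which midbrain transcripts were at, away from or past the control level after the full course of injections. The comparison held 6 of the 21 mice of the series, 3 in each group, and these were all the mice that the labels place in these 2 groups. All were male C57BL/6 mice of 6 weeks. Control mice received ddH2O by daily intraperitoneal injection for 10 days. Irisin-treated mice, as they are called here, received irisin at 200 μg/kg a day for 5 days and then MPTP at 30 mg/kg a day for 5 days. Another group of 3 mice, given ddH2O for 5 days and then MPTP at the same dose for 5 days, shows where MPTP alone lay. The series' other experiment, whose values are set beside some of these, had 4 groups of 3 mice of the same sex, strain and age. These received ddH2O for 10 days (control), ddH2O for 5 days and then irisin for 5 days (irisin alone), MPTP for 5 days and then ddH2O for 5 days, or MPTP for 5 days and then irisin for 5 days, at the same doses. No group of the experiment described here received irisin without MPTP, so the difference from control is that of both agents together. The labels give the tissue as midbrain, and the study's methods describe nigral tissue taken out by hand after perfusion. Each mouse gave 1 library of bulk RNA, in which fewer cells of a type and less RNA per cell cannot be told apart.

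MPTP is a neurotoxin that glia turn into a blocker of mitochondrial complex I, and dopaminergic neurons take up that product through the dopamine transporter. Irisin is cut from the extracellular side of FNDC5, a membrane protein, circulates in the blood and acts on cells through αV integrins. Several of the transcripts described here belong to fast response programmes. Immediate early genes are switched on within minutes by neuronal firing, growth factors or stress and fade soon after. Heat shock genes code for chaperones under the factor HSF1. Glucocorticoid responsive genes are raised by corticosterone through the glucocorticoid receptor.

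Libraries held 66.7 to 69.8 M (mega) counts on genes in control mice, 68.8 to 75.6 M in MPTP mice and 72.1 to 73.8 M in irisin-treated mice. Levels are given as CPM, the count of a gene per 1 M counts of its library after scaling by the TMM method, always in the order mouse 1, mouse 2, mouse 3. A gene is said to have risen or fallen where edgeR's quasi-likelihood test gave it an adjusted p under 0.05. Dopaminergic markers were present in all 9 mice, with Th between 21.3 and 55.1 CPM and Slc6a3 between 25.7 and 106 CPM. Choroid plexus markers summed to 1780 CPM in MPTP mouse 2 and to between 31.8 and 57.6 CPM in the other 8 mice, so that mouse stands apart in the values of the MPTP group.

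Of 22641 genes tested, 16 (0.0707%) differed between irisin-treated and control mice. Of these, 7 rose (0.0309%) and 9 fell (0.0398%). In all 16 the 3 irisin-treated mice lay outside the range of the 3 control mice, as they did for 13.6% of all tested genes. The median log2 fold change over all tested genes was 0.0037, which the scaling of the libraries sets close to 0. At an unadjusted p under 0.05 the count was 1613 genes (7.12%), of which 791 were higher (3.49%) and 822 lower (3.63%). The genes that fell were Yipf6, Hspa1b, Apold1, Fos, Fabp7, Klf2, Btg2, Rps6-ps4 and Jun. The genes that rose were Plin4, Hif3a, Kif22, Mertk, Fam214a, Akap8 and Kcnt1. The count was 5 without irisin-treated mouse 3, of which 2 were among the 16, and 8 without MPTP mouse 1. It was 10 without MPTP mouse 2 and 10 without MPTP mouse 3, and 191 with DESeq2. Yipf6 and Hif3a passed the threshold under all 16 other ways of fitting and testing that were run with adjusted p-values, and Hspa1b, Mertk and Plin4 under 14 of them. Apold1 passed under 11 and Kif22 under 10. The other 9 genes lost the call under most of these alternatives, with Fos and Akap8 past the threshold under 6, Btg2, Fabp7 and Rps6-ps4 under 5, Fam214a under 4, and Jun, Klf2 and Kcnt1 under 3.

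**Figure D1:**
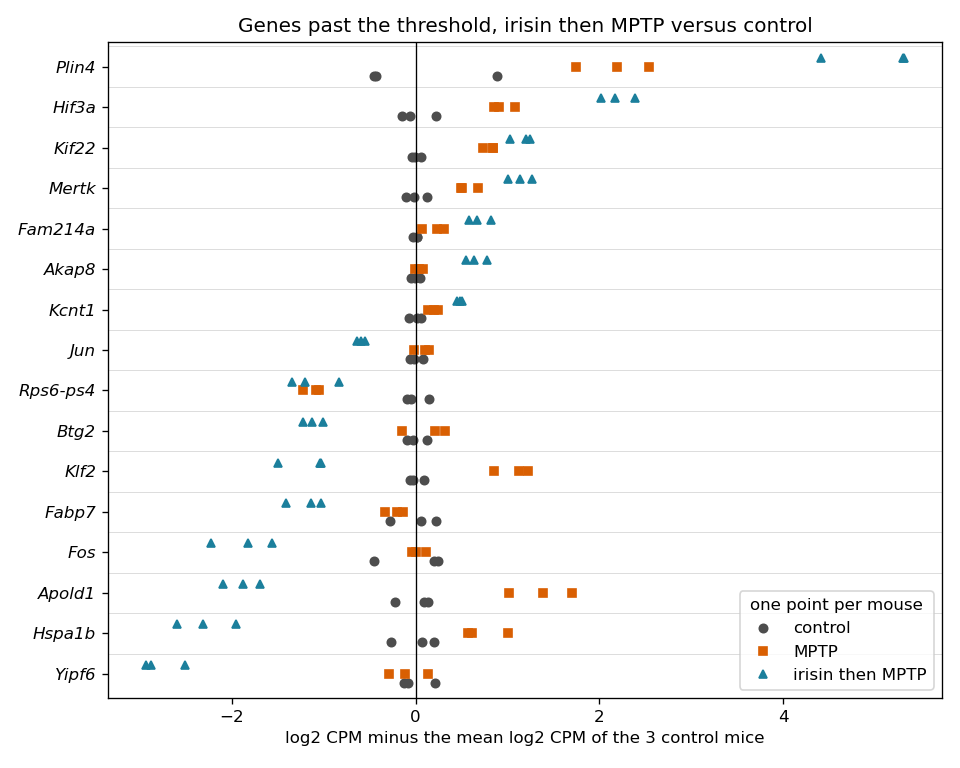
Level of the 16 genes past the threshold in each of 9 mice, as log2 CPM minus the mean log2 CPM of the 3 control mice (horizontal axis), with control mice as circles, MPTP mice as squares and irisin-treated mice as triangles. Triangles lie outside the circles for every gene, while the squares lie between them for 6 genes, on the far side of the circles for 3 (Klf2, Apold1 and Hspa1b), among the circles for 6 and among the triangles for 1 (Rps6-ps4).

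The MPTP mice took 4 kinds of position for these 16 genes. For Kcnt1, Fam214a, Mertk, Kif22, Hif3a and Plin4 they lay between the control and the irisin-treated mice, so the irisin-treated mice lay farther from control. In edgeR's test of irisin-treated against MPTP mice, Hif3a passed the threshold (adjusted p = 0.0179). Plin4 (0.0695), Mertk (0.141) and Kif22 (0.63) did not, and that test is not given here for Kcnt1 and Fam214a. For Hspa1b, Apold1 and Klf2 they lay above the control mice while the irisin-treated mice lay below them. For Yipf6, Fos, Fabp7, Btg2, Jun and Akap8 they overlapped the control mice. For Rps6-ps4 they overlapped the irisin-treated mice. The comparisons with irisin-treated and with MPTP mice share the control mice, so these positions are a description.

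Among the genes that fell, 5 of 9 were immediate early genes. The gene lists used here were chosen with earlier results of these data known, so counts of their members are a description. Fos, which codes for a subunit of the transcription factor AP-1 (chr12:85473890-85477273), stood at 34.4, 21.3 and 33.5 CPM in control mice, 29.3, 31.5 and 28.4 CPM in MPTP mice and 8.2, 6.22 and 9.89 CPM in irisin-treated mice. All irisin-treated mice lay below all other mice, and control and MPTP mice overlapped. The log2 fold change against control was -1.88 ± 0.22 (SE) with an adjusted p of 0.0349. Jun, the partner of Fos in AP-1 (chr4:95049034-95052222), stood at 44.9, 40.7 and 42.2 CPM in control mice, 47.2, 45.7 and 42.1 CPM in MPTP mice and 27.4, 28.2 and 29.0 CPM in irisin-treated mice. Its fall was smaller, with a log2 fold change of -0.60 ± 0.07 and an adjusted p of 0.0411. The antisense gene Junos overlaps it on the other strand, and the use of strand in counting is not given in the sources used here.

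Apold1, a protein of vascular endothelial cells that is induced early by stress (chr6:134981718-134986836), stood at 9.55, 11.9 and 12.3 CPM in control mice. It stood at 36.3, 29.3 and 22.6 CPM in MPTP mice and at 3.04, 2.62 and 3.46 CPM in irisin-treated mice. The 3 groups did not overlap, with the MPTP mice highest and the irisin-treated mice lowest. Against control the log2 fold change was -1.89 ± 0.20 (adjusted p = 0.0192) in irisin-treated mice and 1.39 ± 0.19 (adjusted p = 0.149) in MPTP mice. Klf2, a transcription factor that endothelial cells make in response to blood flow (chr8:72319033-72321656), had the same order. Its level was 12.4, 12 and 13.3 CPM in control mice, 29.3, 27.3 and 22.7 CPM in MPTP mice and 6.11, 4.45 and 6.17 CPM in irisin-treated mice, with log2 fold changes of -1.17 ± 0.15 (adjusted p = 0.0457) and 1.07 ± 0.15 (adjusted p = 0.149).

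Btg2, a brake on cell proliferation that responds to growth factors and to p53 (chr1:134075170-134079120), stood at 15.4, 16 and 17.9 CPM in control mice. It stood at 20.4, 19.0 and 14.8 CPM in MPTP mice and at 7.51, 6.99 and 8.17 CPM in irisin-treated mice. The irisin-treated mice were the lowest, and the log2 fold change was -1.12 ± 0.14 with an adjusted p of 0.0387. Its promoter is shown because it alone, of the 16 promoters matched to 14 of the genes past the threshold, holds the full cyclic AMP response element, TGACGTCA, searched on both strands. The letters, in capitals, start 166 bases before the annotated start of the gene. The window runs from 250 bases before to 50 bases after the start, on the minus strand, from RefSeq on GRCm38.p6 at chr1:134079106-134079405.
Btg2 promoter: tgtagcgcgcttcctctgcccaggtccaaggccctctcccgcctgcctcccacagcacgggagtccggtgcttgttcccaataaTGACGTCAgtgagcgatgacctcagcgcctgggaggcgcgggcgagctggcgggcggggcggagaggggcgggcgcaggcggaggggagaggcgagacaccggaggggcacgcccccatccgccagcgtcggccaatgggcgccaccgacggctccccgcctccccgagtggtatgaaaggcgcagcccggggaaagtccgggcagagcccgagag

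The same element was present in 1.79% of 32851 RefSeq promoters of this length. Of the 36 promoters matched to 26 listed immediate early genes, 3 held it, those of Btg2, Dusp1 and Maff. None of the 36 held the exact serum response element searched, which 0.0639% of all promoters held. These matches are a description of the letters in the window.

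Over the immediate early genes as a list, 34 were tested, 5 fell and 0 rose. The median log2 fold change was -0.64 in irisin-treated mice and 0.20 in MPTP mice, both against control, and 30 of 34 members were lower in irisin-treated mice while 25 of 34 were higher in MPTP mice. At an unadjusted p under 0.05, 20 of 34 were lower in irisin-treated mice, against 3.63% of all tested genes, and 0 higher. In MPTP mice 10 were higher and 1 lower at that p, which 6.03% of all tested genes reached. In 19 members the irisin-treated mice all lay below the control mice, against 6.92% of all tested genes. Members named from here on in this list were chosen after their values were seen. Egr1, a zinc finger factor that marks neuronal activity, stood at 78.2, 31.7 and 64.8 CPM in control mice, 61.1, 31.9 and 49.4 CPM in MPTP mice and 23.0, 26.5 and 29.3 CPM in irisin-treated mice, with an adjusted p of 0.483. Control mouse 2 was close to the irisin-treated mice for this gene. Atf3, a stress-induced factor of the ATF family, stood at 1.10, 1.83 and 1.58 CPM in control mice, 4.35, 6.30 and 4.85 CPM in MPTP mice and 0.480, 0.746 and 0.316 CPM in irisin-treated mice, with an adjusted p of 0.277. Klf10, with a log2 fold change of 0.59, and Ccn2, Trib1 and Ier5, between 0.04 and 0.09, were the 4 members on the higher side, none of them past the threshold.

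The count of 5 was not stable. It ranged from 0 to 3 when any 1 mouse was left out, and it was 0 without control mouse 3 and without any 1 of the irisin-treated mice. The median stayed between -0.71 and -0.61 under all 17 alternatives. Red blood cell markers were mostly lower in irisin-treated than in control mice as well. Of 8 listed, 7 were tested and 0 passed the threshold. At an unadjusted p under 0.05, 5 were lower and 1 higher, against 3.63% and 3.49% of all tested genes. They summed to 603 to 898 CPM in control mice, 619 to 900 CPM in MPTP mice and 294 to 531 CPM in irisin-treated mice. Markers of endothelial cells and pericytes, the site of Apold1 and Klf2, summed to 660 to 776 CPM in control mice and 697 to 731 CPM in irisin-treated mice, and their median log2 fold change was 0.05 across 18 genes. The part of blood content in the fall of these genes was not tested.

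Among the heat shock chaperones only Hspa1b fell. This gene codes for an inducible cytosolic HSP70 (chr17:34956436-34959238) and stood at 14.2, 10.3 and 13.0 CPM in control mice, 19.0, 18.4 and 24.9 CPM in MPTP mice and 2.06, 3.20 and 2.5 CPM in irisin-treated mice. The 3 groups did not overlap, and the irisin-treated mice lay far below both others. The log2 fold change was -2.27 ± 0.21 (adjusted p = 0.012) in irisin-treated mice and 0.73 ± 0.20 (adjusted p = 0.769) in MPTP mice. Its neighbour Hspa1a (chr17:34969190-34972156) codes for a near-identical protein, and counts of the pair are uncertain where reads fit both. Hspa1a stood at 20.6, 8.91 and 15.2 CPM in control mice, 19.4, 19.8 and 23.1 CPM in MPTP mice and 3.99, 5.20 and 5.63 CPM in irisin-treated mice, with a log2 fold change of -1.59 ± 0.28 and an adjusted p of 0.149. The irisin-treated mice lay below the others for both genes.

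The promoters of the pair are shown because they are near copies as well. They are RefSeq windows on the minus strand of GRCm38.p6, at chr17:34959189-34959488 for Hspa1b and chr17:34972107-34972406 for Hspa1a, each from 250 bases before to 50 bases after the start. They were identical at 296 of 300 positions. Capitals mark GAAGATTC, a match to the paired heat shock unit GAANNTTC that starts 104 bases before the start of each gene.
Hspa1b promoter: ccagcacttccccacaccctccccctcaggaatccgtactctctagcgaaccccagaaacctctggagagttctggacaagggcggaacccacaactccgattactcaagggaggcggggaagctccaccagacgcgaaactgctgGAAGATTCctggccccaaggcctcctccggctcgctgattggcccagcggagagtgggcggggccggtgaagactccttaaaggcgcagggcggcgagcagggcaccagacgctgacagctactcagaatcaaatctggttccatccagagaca
Hspa1a promoter: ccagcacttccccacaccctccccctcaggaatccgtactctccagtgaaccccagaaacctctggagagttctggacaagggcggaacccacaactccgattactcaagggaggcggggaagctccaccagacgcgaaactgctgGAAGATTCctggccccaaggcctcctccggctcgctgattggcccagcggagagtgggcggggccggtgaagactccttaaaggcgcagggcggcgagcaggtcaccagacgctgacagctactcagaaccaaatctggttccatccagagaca

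The paired unit was found, on either strand, in 10 of 20 promoters matched to 14 listed heat shock genes and in 7.86% of all 32851 promoters. The longer heat shock element, which is the paired unit followed after 2 bases by a further GAA and so overlaps it, was found in 5 of those 20, belonging to Chordc1, Hspd1, Hspe1 and Hsph1, and in 0.603% of all promoters. The genes with the longer element were not those with the largest differences. Hsph1, an HSP110 that acts as nucleotide exchange factor for HSP70, had a log2 fold change of -0.31, and Hspd1, the mitochondrial chaperonin, had -0.01, neither past the threshold. These members and the promoters were chosen for their letters, and the matches say nothing of binding.

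Of 19 heat shock genes tested, 1 fell and 0 rose, and the median log2 fold change was -0.13 in irisin-treated mice and 0.11 in MPTP mice. At an unadjusted p under 0.05, 8 were lower in irisin-treated mice, against 3.63% of all tested genes, and 0 higher. Dnajb1, an HSP40 that hands clients to HSP70 (chr8:83608193-83612653), stood at 88.0, 67.2 and 89.9 CPM in control mice, 87.5, 81.4 and 81.2 CPM in MPTP mice and 46.4, 47.4 and 46.3 CPM in irisin-treated mice. The groups did not overlap between control and irisin-treated mice, and the log2 fold change of -0.81 ± 0.11 missed the threshold at an adjusted p of 0.0523. The master factor Hsf1 had a log2 fold change of 0.11 and the constitutive Hspa8 -0.26, neither past the threshold and both chosen after their values were seen. No heat shock gene passed without irisin-treated mouse 3, with Hspa1b then at an adjusted p of 0.0508, and 3 passed without control mouse 2.

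Among the genes that rose, 3 of 7 were in the list of glucocorticoid responsive genes. This list too was chosen with earlier results of these data known, so its counts are a description. Plin4, a coat protein of lipid droplets (chr17:56100591-56109803), stood at 1.70, 1.73 and 4.28 CPM in control mice, 7.77, 13.5 and 10.6 CPM in MPTP mice and 91.4, 49.3 and 92.4 CPM in irisin-treated mice. The 3 groups did not overlap and stood in that order, and the irisin-treated mice lay far above the rest. The log2 fold change against control was 4.92 ± 0.46 (adjusted p = 0.012) in irisin-treated mice and 2.05 ± 0.41 (adjusted p = 0.485) in MPTP mice. Plin4 overlaps Hdgfl2, a gene on the other strand.

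Hif3a, an alpha subunit of the hypoxia-inducible factors (chr7:17031507-17062427), stood at 6.28, 6.67 and 8.11 CPM in control mice, 12.6, 14.7 and 13.1 CPM in MPTP mice and 36.4, 28.3 and 31.3 CPM in irisin-treated mice. The order of the groups was the same, with no overlap, and the log2 fold changes were 2.19 ± 0.14 (adjusted p = 0.00125) and 0.94 ± 0.14 (adjusted p = 0.167). Mertk, a receptor tyrosine kinase by which astrocytes and microglia engulf debris (chr2:128698956-128802894), stood at 19.6, 20.8 and 23.1 CPM in control mice, 30.1, 29.9 and 33.8 CPM in MPTP mice and 51.0, 42.4 and 46.6 CPM in irisin-treated mice. Its log2 fold changes were 1.14 ± 0.10 (adjusted p = 0.012) and 0.56 ± 0.10 (adjusted p = 0.361), again in the same order. In the list of hypoxia and glycolysis genes, which does not hold Hif3a, 0 of 18 tested passed the threshold and the median log2 fold change was -0.01.

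Of 18 glucocorticoid responsive genes tested, 3 rose and 0 fell. The median log2 fold change was 0.81 in irisin-treated mice and 0.47 in MPTP mice, and 16 of 18 were higher than control in each. At an unadjusted p under 0.05, 11 were higher and 2 lower in irisin-treated mice, against 3.49% and 3.63% of all tested genes. In MPTP mice 11 were also higher and 0 lower at that p, which 6.03% of all tested genes reached. In 11 members the irisin-treated mice all lay above the control mice, against 6.65% of all tested genes. Zbtb16, the transcription factor PLZF (chr9:48654297-48836222), stood at 8.02, 7.42 and 5.03 CPM in control mice, 10.5, 16.7 and 19.6 CPM in MPTP mice and 45.8, 26.4 and 28.8 CPM in irisin-treated mice, with a log2 fold change of 2.30 ± 0.30 that missed the threshold at an adjusted p of 0.0523.

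Other members of this list were chosen after their values were seen. Fkbp5, a co-chaperone of the glucocorticoid receptor, stood at 21.0, 25.7 and 24.6 CPM in control mice, 33.4, 12.8 and 36.9 CPM in MPTP mice and 68.3, 53.9 and 65.9 CPM in irisin-treated mice, with an adjusted p of 0.344. MPTP mouse 2 was the lowest of all 9 mice and the irisin-treated mice were the highest. Tsc22d3, the glucocorticoid-induced leucine zipper, stood at 126, 49.5 and 44.6 CPM in control mice and 133, 115 and 133 CPM in irisin-treated mice. Control mouse 1 thus lay within the range of the irisin-treated mice, and the 2 groups overlapped. Sgk1, a kinase that regulates ion transport, had a log2 fold change of 0.10 in irisin-treated mice and 0.52 in MPTP mice. Of 27 promoters matched to 17 genes of the list, 1 held the glucocorticoid response element searched, found in 0.0487% of all promoters. That promoter was 1 of the 6 matched to Sgk1. The members on the lower side were Nfkbia, an inhibitor of NF-κB, at -0.56 and the clock gene Per1, which the list of immediate early genes also holds, at -0.30, neither past the threshold.

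The median of the list stayed between 0.67 and 0.89 under all 17 alternatives. Between 1 and 4 of its members passed when 1 mouse was left out, with 1 (Hif3a) without irisin-treated mouse 3, where Plin4 was at an adjusted p of 0.0501 and Mertk at 0.0508. Markers of astrocytes, which also express Mertk, summed to 4807 to 5265 CPM in control mice and 5344 to 5619 CPM in irisin-treated mice, with 0 of 11 past the threshold and a median log2 fold change of 0.04. Of these Glul, glutamine synthetase and a gene that glucocorticoids also raise, had the smallest p, with a log2 fold change of 0.37 ± 0.06 and an adjusted p of 0.127. Microglial markers summed to 347 to 408 CPM and 335 to 360 CPM, with 0 of 16 past the threshold. The part of cell composition in the rise of Mertk was not tested.

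**Figure D2:**
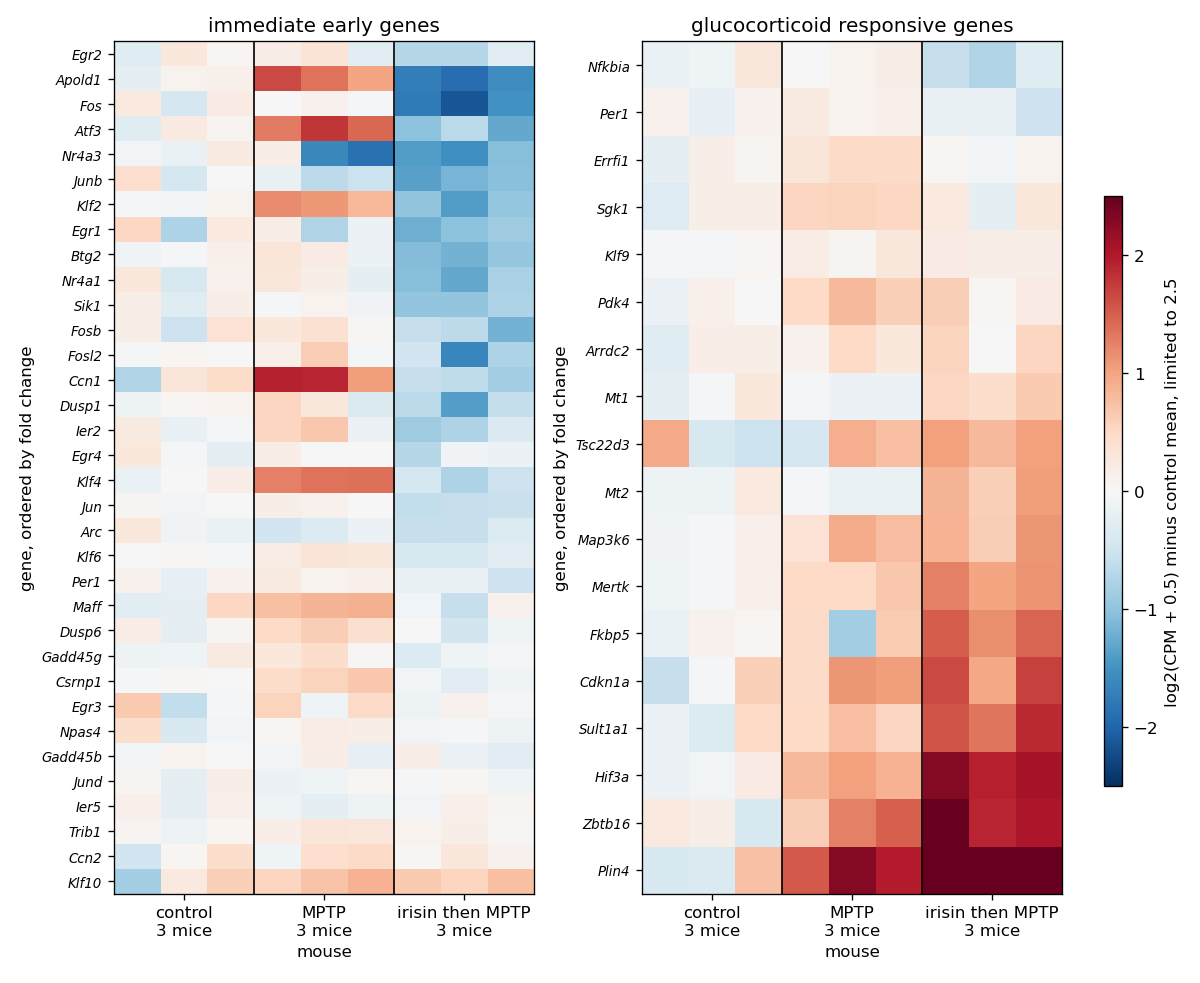
Colour gives log2(CPM + 0.5) minus the mean of the 3 control mice for each tested immediate early gene (left) and glucocorticoid responsive gene (right), with 1 column per mouse in 3 groups, genes ordered by fold change and colours limited to 2.5 on either side. The left block is mostly blue in irisin-treated mice (median log2 fold change -0.64) and mixed to red in MPTP mice (0.20), and the right block is red in both, more so in irisin-treated mice (0.81 against 0.47).

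The remaining genes past the threshold belonged to neither of these programmes. Yipf6, a membrane protein of the Golgi (chrX:98936316-98949017), stood at 45.5, 57.7 and 46.8 CPM in control mice, 46.1, 54.4 and 40.8 CPM in MPTP mice and 8.72, 6.75 and 6.50 CPM in irisin-treated mice. Control and MPTP mice overlapped, and the irisin-treated mice stood at a level of their own, with a log2 fold change of -2.77 ± 0.17 and an adjusted p of 0.00125. In the series' other experiment, with irisin after MPTP, 11 of the 12 mice of all 4 groups stood between 29.6 and 41.7 CPM, and 1 untreated control mouse stood at 5.92 CPM. A low level of this gene was therefore also seen in a mouse that received neither agent.

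Fabp7, the brain fatty acid-binding protein of radial glia and astrocytes (chr10:57784881-57788450), stood at 35.8, 45.5 and 50.8 CPM in control mice, 34.7, 37.8 and 39.8 CPM in MPTP mice and 19.8, 21.4 and 16.4 CPM in irisin-treated mice, with a log2 fold change of -1.20 ± 0.15 and an adjusted p of 0.0387. The summed astrocyte markers lay above those of control mice in the same libraries. Rps6-ps4, an annotated pseudogene of the ribosomal protein gene Rps6 (chr2:75191073-75191822), stood at 53.7, 45.4 and 46.7 CPM in control mice, 20.8, 23.3 and 22.8 CPM in MPTP mice and 19.1, 27.2 and 21.0 CPM in irisin-treated mice. Its log2 fold change was -1.12 ± 0.14 against control in both groups, with an adjusted p of 0.0387 in irisin-treated and 0.068 in MPTP mice. Its counts are uncertain, since a pseudogene shares sequence with its parent gene, and 2600014E21Rik overlaps it on the other strand.

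Kif22, a kinesin that moves chromosomes in dividing cells (chr7:127027729-127042471), stood at 3.30, 3.22 and 3.44 CPM in control mice, 5.53, 5.96 and 5.93 CPM in MPTP mice and 7.83, 6.77 and 7.64 CPM in irisin-treated mice. It rose by 1.16 ± 0.12 on the log2 scale (adjusted p = 0.0178), and MPTP mice lay 0.81 ± 0.12 above control (adjusted p = 0.167), so most of the distance from control was present with MPTP alone. Akap8, a nuclear anchoring protein of protein kinase A (chr17:32303672-32321238), rose by 0.66 ± 0.07 (adjusted p = 0.0253), from 91.6, 85.4 and 88.3 CPM to 129, 137 and 152 CPM, and MPTP mice stood at 93.2, 90.6 and 87.8 CPM within the control range or next to it. Fam214a (chr9:74952884-75032448) rose by 0.69 ± 0.09 (adjusted p = 0.0396), from 45.6, 44.3 and 45.7 CPM to 80.0, 67.9 and 71.6 CPM. Kcnt1, a potassium channel gated by sodium (chr2:25863734-25917080), had the smallest rise of the 7, by 0.48 ± 0.06 (adjusted p = 0.0387), from 118, 107 and 114 CPM to 158, 160 and 155 CPM.

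Among genes just outside the threshold, Dcbld2, a membrane protein of the neuropilin-like kind, stood at 17.7, 21.2 and 14.6 CPM in control mice, 40.7, 36.1 and 30.7 CPM in MPTP mice and 39.0, 36.7 and 37.3 CPM in irisin-treated mice. MPTP and irisin-treated mice overlapped above the control mice, and the log2 fold changes were 1.08 ± 0.15 (adjusted p = 0.0605) in irisin-treated and 1.0 ± 0.15 (adjusted p = 0.167) in MPTP mice. Gm37069, an annotated gene model that overlaps Capn2 on the other strand, stood at 4.39, 4.31 and 3.67 CPM in control mice and 9.27, 8.01 and 9.48 CPM in irisin-treated mice, with an adjusted p of 0.0523.

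Genes moved by MPTP were then placed by their level in irisin-treated mice. A gene was called back at control where it did not differ from control and the 95% interval of its log2 fold change lay within 0.585 on either side of 0, which is 1.5-fold. It was called away where it differed in the direction of MPTP, past control where it differed in the opposite direction, and undetermined otherwise. MPTP alone moved 5 genes against control (0.0221% of those tested), 4 up and 1 down. With irisin before MPTP, 3 of the 5 were back at control, 2 were undetermined, 0 stayed away and 0 passed control.

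**Figure D3:**
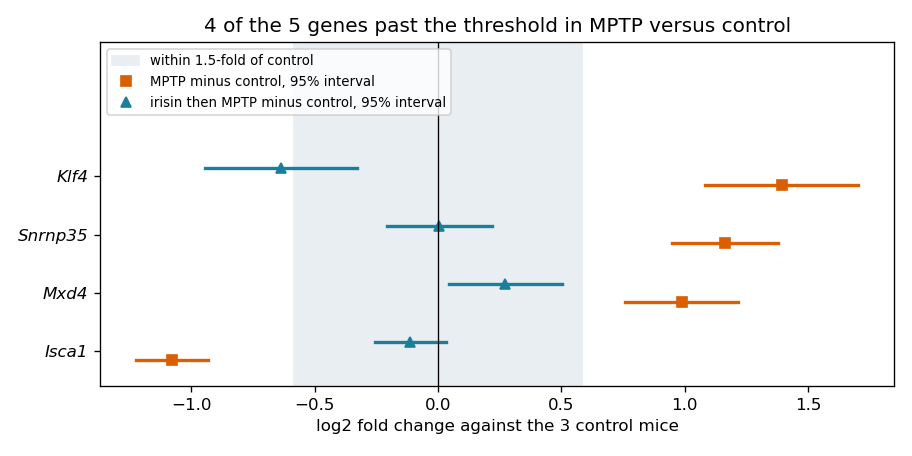
Log2 fold change against the 3 control mice (horizontal axis) of 4 of the 5 genes past the threshold in MPTP mice, with MPTP mice as squares and irisin-treated mice as triangles, 95% intervals as lines and the range within 1.5-fold of control shaded. Triangles of Isca1, Mxd4 and Snrnp35 have their whole interval in the shaded range, and that of Klf4 crosses its lower edge.

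Isca1, which helps assemble iron-sulfur clusters in mitochondria (chr13:59755409-59769810), stood at 184, 172 and 166 CPM in control mice, 79.4, 85.7 and 82.4 CPM in MPTP mice and 168, 153 and 163 CPM in irisin-treated mice. MPTP mice lay apart at -1.08 ± 0.06 (adjusted p = 0.0014), and irisin-treated mice overlapped the control mice, with a log2 fold change of -0.11 and an interval of -0.26 to 0.03. In the other experiment this gene also stood on 2 separate levels, 65.9 to 77.5 CPM in 4 mice and 169 to 201 CPM in 8 mice, over its 4 groups. Untreated control mice of that experiment were on both, at 74.5, 65.9 and 178 CPM. The 2 levels of Isca1 thus occurred among mice of the same treatment.

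Snrnp35, a protein of the minor spliceosome (chr5:124483134-124491124), stood at 7.11, 7.18 and 6.83 CPM in control mice, 15.2, 16.7 and 15.3 CPM in MPTP mice and 7.09, 7.45 and 6.66 CPM in irisin-treated mice. Its log2 fold change was 1.16 ± 0.09 (adjusted p = 0.00904) in MPTP mice and 0.01 with an interval of -0.21 to 0.22 in irisin-treated mice, the closest to control of the 4 genes shown. Mxd4, a partner of MAX that opposes MYC (chr5:34173883-34187710), stood at 41.7, 49.6 and 43.0 CPM in control mice, 91.0, 87.2 and 88.2 CPM in MPTP mice and 60.0, 47.6 and 54.7 CPM in irisin-treated mice. It was within 1.5-fold of control, but its interval of 0.05 to 0.50 did not include 0.

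Klf4, a zinc finger factor of the KLF family and an immediate early gene (chr4:55527143-55532466), stood at 5.62, 6.30 and 7.23 CPM in control mice, 16, 17.1 and 17.2 CPM in MPTP mice and 4.52, 3.52 and 4.27 CPM in irisin-treated mice. The irisin-treated mice lay below the control mice, at -0.64 with an interval of -0.95 to -0.33 and an adjusted p of 0.277. This is the order that Apold1 and Klf2 also had.

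The number of genes moved by MPTP depended on single mice. It was 17 without MPTP mouse 2, the mouse with the choroid plexus transcripts, with 9 back at control and 8 undetermined. It was 14 without control mouse 2, with 7 that stayed away, and 12 without control mouse 1, with 6 that stayed away. It was 9 without control mouse 3, 9 without MPTP mouse 3, 9 without irisin-treated mouse 1 and 10 without irisin-treated mouse 2. Isca1 and Snrnp35 passed whichever mouse was left out. Klf4 missed the threshold without control mouse 2, MPTP mouse 1, MPTP mouse 3 or irisin-treated mouse 3, at adjusted p-values up to 0.067, and Mxd4 without control mouse 1, control mouse 3, MPTP mouse 1, MPTP mouse 3 or irisin-treated mouse 3, at up to 0.111. With DESeq2 Klf4 passed control.

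Taking an unadjusted p under 0.05 and a difference of 1.5-fold or more, MPTP mice differed from control mice in 575 genes (2.54%), of which 329 were higher and 246 lower. With irisin before MPTP, 20 of them were back at control, 548 were undetermined, 4 stayed away and 3 passed control. The 4 that stayed away were Plin4, Hif3a, Kif22 and Rps6-ps4, and the 3 that passed control were Klf2, Apold1 and Hspa1b, all described above. The median absolute log2 fold change against control of the 575 genes was 1.08 in MPTP mice and 0.60 in irisin-treated mice. In 467 of the 575 the irisin-treated group was nearer to control than the MPTP group, and in 86 it lay on the opposite side of control. The 575 include choroid plexus markers such as Ttr, at 6.57 in MPTP mice and 0.70 in irisin-treated mice. These markers summed to 39.8, 1780 and 48.2 CPM in MPTP mice 1, 2 and 3, so such differences rest on MPTP mouse 2. The 575 genes were chosen on these control mice and on the MPTP mice, so the counts and medians are a description of that choice as well. With 548 undetermined, 3 mice in each group could not place most of these genes.

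Genes of dopaminergic neurons did not pass the threshold in irisin-treated mice, with 0 of 16 called. Their median log2 fold change was -0.21 in irisin-treated mice and 0.09 in MPTP mice. At an unadjusted p under 0.05, 4 were lower, against 3.63% of all tested genes, and 0 higher. In 3 of these 4 the irisin-treated mice all lay below the control mice, against 6.92% of all tested genes. Slc6a3, the dopamine transporter (chr13:73536747-73578672), stood at 58.9, 106 and 105 CPM in control mice, 51.3, 65.5 and 52.1 CPM in MPTP mice and 28.3, 37.2 and 25.7 CPM in irisin-treated mice. The irisin-treated mice were the lowest, with a log2 fold change of -1.57 ± 0.24, an interval of -2.11 to -1.02 and an adjusted p of 0.0886. Control mouse 1 stood well below the other 2 control mice, and without it the adjusted p was 0.0204. DESeq2 gave an adjusted p of 6.61e-08. These were the only 2 of the 16 other ways of fitting and testing with adjusted p-values under which Slc6a3 passed. Under the rest it missed the threshold, at adjusted p-values up to 0.38.

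Th, tyrosine hydroxylase, the rate-limiting enzyme of dopamine synthesis (chr7:142892752-142931128), stood at 34.3, 50.1 and 55.1 CPM in control mice, 34.2, 51.6 and 31.5 CPM in MPTP mice and 21.3, 34.8 and 24.0 CPM in irisin-treated mice. Irisin-treated mouse 2 was at the level of control mouse 1, and the log2 fold change was -0.80 ± 0.26 with an adjusted p of 0.562. Chrna6, a nicotinic receptor subunit of these neurons, stood at 16.3, 20.8 and 24.4 CPM in control mice and 11.7, 14.9 and 14.1 CPM in irisin-treated mice, at -0.60 ± 0.17 (adjusted p = 0.456). Nr4a2, a transcription factor that maintains dopaminergic identity and belongs to the same family as the early genes Nr4a1 and Nr4a3, stood at 15.3, 16.1 and 16 CPM in control mice and 7.55, 9.98 and 12 CPM in irisin-treated mice, at -0.68 ± 0.26 (adjusted p = 0.648).

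The other genes of transmitter handling lay close to control with wide intervals. Slc18a2, the vesicular monoamine transporter, was at -0.05 (interval -0.81 to 0.71), and Ddc, aromatic amino acid decarboxylase, at -0.10 (interval -1.0 to 0.80). Gch1, which makes the cofactor of Th, was at 0.08, Drd2, the autoreceptor, at -0.25, Aldh1a1, a dehydrogenase of ventral tier neurons, at -0.17, and Ret, the GDNF receptor, at -0.33. Of the developmental factors, En1 was at -0.03, Lmx1b at -0.14, Foxa2 at -0.16 and Foxa1 at -0.37. Sncg was at 0.13. Pitx3 was under 1 CPM in every mouse and at 0 in 1 irisin-treated and 1 MPTP mouse, and no fold is given. Slc18a2 and Ddc are shared with serotonergic neurons, whose markers summed to 52.6 to 174 CPM in control mice, 90.7 to 330 CPM in MPTP mice and 89.8 to 216 CPM in irisin-treated mice. These markers varied widely within each group, and the part of the dissection in the dopaminergic values was not tested.

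**Figure D4:**
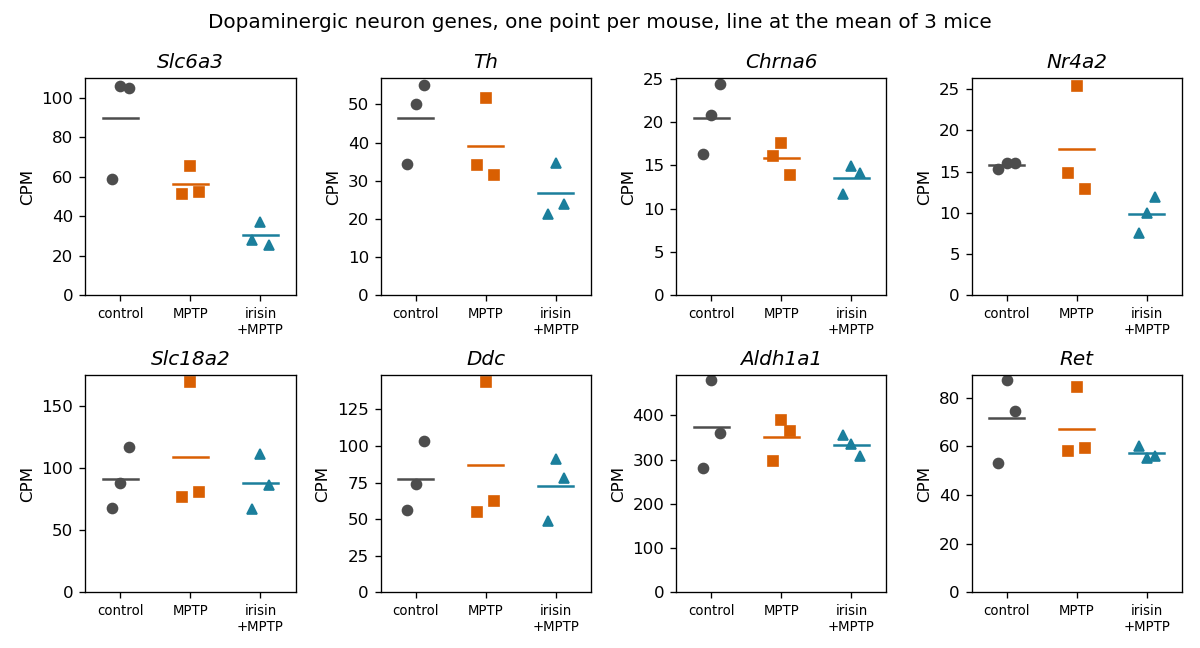
CPM (vertical axes, from 0) of 8 dopaminergic neuron genes in each of 9 mice, with control mice as circles, MPTP mice as squares, irisin-treated mice as triangles and a line at the mean of each group of 3. Slc6a3 of irisin-treated mice lies between 25.7 and 37.2 CPM, below all control mice (58.9 to 106 CPM), while Slc18a2 and Ddc overlap among the 3 groups.

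No mitochondrial gene of the lists passed the threshold, and most of those of complex I and of the mitochondrial genome lay slightly lower than control. Of 36 nuclear genes of complex I, the target of MPTP's product, 0 passed the threshold, and the median log2 fold change was -0.10 in irisin-treated mice and -0.09 in MPTP mice. In irisin-treated mice 31 of 36 were lower than control. At an unadjusted p under 0.05, 4 were lower, against 3.63% of all tested genes, and 0 higher. In 7 the irisin-treated mice all lay below the control mice, against 6.92% of all tested genes. Ndufs3, a core subunit, was the one with the smallest p, at -0.20 ± 0.06 (adjusted p = 0.524), with 80.8, 81.9 and 82.9 CPM in control mice, 72.3, 75.2 and 71.3 CPM in MPTP mice and 75.2, 69.7 and 69.1 CPM in irisin-treated mice. Both treated groups lay below the control mice by a small distance. The 13 transcripts of the mitochondrial genome had a median of -0.05, with 12 of 13 lower than control and 0 at an unadjusted p under 0.05, and those for mitochondrial biogenesis and dynamics a median of -0.01 over 20 genes, 10 of them lower, with 0 past the threshold in each. Pink1, the kinase that marks damaged mitochondria, was at -0.13 ± 0.05 (adjusted p = 0.632) and Park7, the redox sensor DJ-1, at -0.19 ± 0.07 (adjusted p = 0.605).

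In the lists for other processes that the study asked about, no transcript passed the threshold either. The study measured these processes by protein level, cleavage, phosphorylation and enzyme activity, which transcript levels do not show. The list of apoptosis regulators had a median log2 fold change of -0.06 over 18 genes, that of antioxidant genes -0.05 over 17, and that of the integrin, Akt and ERK pathway -0.04 over 25. The irisin-treated mice all lay below the control mice in 1, 4 and 5 of these, against 6.92% of all tested genes. They all lay above in 0, 2 and 2, against 6.65%. Mcl1, a survival protein of the BCL2 family, was at -0.20 ± 0.06 (adjusted p = 0.527), and Srxn1, which repairs peroxiredoxins, at 0.41 ± 0.15 (adjusted p = 0.616). Fndc5, the gene of the irisin precursor, stood at 152, 149 and 147 CPM in control mice and 135, 134 and 127 CPM in irisin-treated mice, at -0.18 ± 0.06 (adjusted p = 0.564).

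Cholesterol synthesis genes were mostly on the low side without passing the threshold. Of 17 tested, 16 were lower than control in irisin-treated mice and 9 were higher than control in MPTP mice. The median log2 fold changes were -0.18 and 0.03. At an unadjusted p under 0.05, 8 were lower in irisin-treated mice, against 3.63% of all tested genes. Hmgcs1, an early enzyme of the pathway, stood at 310, 412 and 362 CPM in control mice, 335, 354 and 333 CPM in MPTP mice and 263, 267 and 250 CPM in irisin-treated mice, at -0.47 ± 0.09 (adjusted p = 0.225). Of the oligodendrocyte lineage, the cells that make most of the brain's cholesterol, 0 of 16 genes passed. Opalin, a myelin membrane protein, stood at 74.8, 83.1 and 73.7 CPM in control mice, 52.7, 50.3 and 57.0 CPM in MPTP mice and 47.5, 50.9 and 33.8 CPM in irisin-treated mice, at -0.81 ± 0.14 (adjusted p = 0.156). The part of cell composition in the cholesterol values was not tested.

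The remaining lists held 0 genes past the threshold. Their median log2 fold changes were -0.20 for inflammatory genes, -0.05 for interferon stimulated genes, -0.09 for clock genes, -0.04 for the integrated stress response, -0.03 for chaperones of the endoplasmic reticulum, 0.02 for reactive astrocyte genes and 0.04 for extracellular matrix. Markers of choroid plexus had a median of 0.14, of ependymal cells 0.40, of serotonergic neurons 0.15, of GABA, glutamate and acetylcholine neurons 0.05 and of striatal and cortical neurons -0.18. In MPTP mice, 18 of 18 chaperones of the endoplasmic reticulum were higher than control, with a median of 0.18, and in irisin-treated mice 8 of 18 were.

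**Figure D5:**
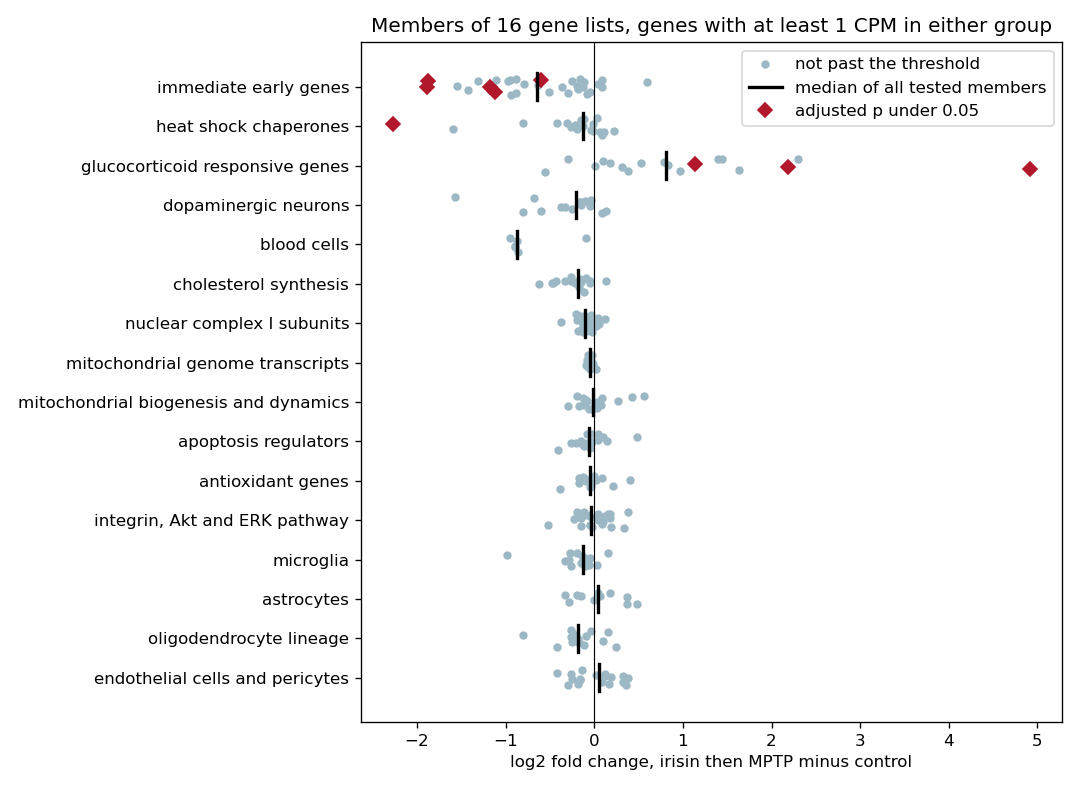
Log2 fold change of irisin-treated against control mice (horizontal axis) for the members of 16 gene lists with at least 1 CPM in either group, with diamonds for genes past the threshold, circles for the others and a bar at the median of all tested members. The immediate early genes reach to the left (median -0.64, 5 diamonds) and the glucocorticoid responsive genes to the right (median 0.81, 3 diamonds), and the other lists except blood cells (-0.88) have medians between -0.21 and 0.05.

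The series' other experiment gave irisin at 200 μg/kg a day for 5 days after MPTP at 30 mg/kg a day for 5 days, with separate mice, libraries and control mice. Against its own control mice, 24 of 21922 tested genes (0.109%) passed the threshold. All 16 genes described above were tested there, and 0 passed. Of the 16, 9 had the same sign, and 5 had an unadjusted p under 0.05, which 9.31% of all genes tested there reached. The values were -0.44 for Fabp7, -0.33 for Jun and -0.61 for Btg2, which had the same sign, and 0.96 for Hspa1b and 0.70 for Rps6-ps4, which had the opposite sign. Dnajb1, just outside the threshold with irisin before MPTP at -0.81, passed it in the opposite direction with irisin after MPTP, at 0.40 with an adjusted p of 0.0204. It stood at 65.6, 65.0 and 68.0 CPM in control mice and 88.2, 86.9 and 87.7 CPM in mice given irisin after MPTP. The difference between the experiments was not tested, since the order of injections, the mice and the libraries all differ and cannot be told apart.

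For Plin4 and Hif3a, which rose, and for Zbtb16, which missed the threshold, the control mice of the experiments stood at different levels. Plin4 was at 49.9, 123 and 44.7 CPM in control mice of the other experiment and at 58.8, 63.3 and 70.3 CPM in its mice given irisin after MPTP, so that the high level of the irisin-treated mice described here lay within the range of untreated mice there. Hif3a was at 17.4, 27.1 and 20.4 CPM in those control mice and at 19.4, 3.51 and 17.6 CPM in mice given irisin after MPTP. Zbtb16 was at 22.8, 30.0 and 27.9 CPM and at 33.8, 35.6 and 33.3 CPM. For Plin4, Hif3a and Zbtb16 the control mice of the present comparison all lay below the control mice of the other experiment. The experiments were scaled separately, so levels across them are set side by side without a test. Slc6a3 and Th were lower in mice given irisin after MPTP as well, at -1.32 (adjusted p = 0.38) and -0.73 (adjusted p = 0.144), neither past the threshold.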

How the data were processed

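Mice were grouped by the labels. Raw counts per gene, made by the authors with featureCounts, were deposited for 33829 genes of the pre-treatment experiment and 55385 of the delayed one, and were tested here. FPKM values deposited by the authors beside them were neither tested nor printed. The submitters' processing notes name HISAT, StringTie, edgeR and mm9, while the tables give gene positions of GRCm38. The use of strand is not given in the sources used here. In R 4.3.3, edgeR 4.0.16 was fitted to all 9 mice of the experiment (filterByExpr, minimum count 10 and minimum total 15, TMM, quasi-likelihood test, two-sided, Benjamini-Hochberg over 22641 genes, threshold 0.05). Standard errors are the log2 fold change divided by the square root of F. The delayed experiment, with 12 mice, was fitted alone. Each library is 1 mouse. With 3 mice a group an exact test of 1 gene cannot give p under 0.1.

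The members and gene lists were chosen with earlier results of these data known. Genes named are those past the threshold, filled to 10 each way by the smallest p among genes without overlap and with a mean of at least 1 CPM, the genes moved by MPTP, all dopaminergic genes, and for each list its members past the threshold and the 3 with the smallest p, beside those said to be chosen after seeing their values. Deviations of same-numbered mice of different groups had correlations of -0.08 to 0.10, and those of differently numbered mice -0.11 to 0.14. The numbers were therefore not used to pair mice. With 3 mice a group, these correlations cannot exclude that same-numbered mice were handled together. No 2 mice had counts within sampling noise of each other, the lowest chi-square per gene being 47.8. Promoters were RefSeq windows on GRCm38.p6. Scripts were tested on simulated data. Alternatives were median ratio scaling, library size alone, other filters, DESeq2 1.42.0, only the 2 groups, a replicate block, unadjusted p with 2-fold, other bounds and leaving out each mouse. Some genes that these rules select are not reported here.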

Additional observations from a re-analysis of the deposited data

How the results depend on the processing

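With 3 mice a group, the direction of every named gene past the threshold held under every alternative run, while the number past it did not. Of 16 genes past the threshold, 16 were also past it with median ratio scaling and 13 with library size alone. With all genes of any count, 9 passed, 4 of them lower. DESeq2 gave 191, 94 higher and 97 lower, and 91 genes moved by MPTP, of which 22 were back at control, 43 undetermined, 21 away and 5 past control. With only the 2 groups compared, 5 were lower, 10 were moved by MPTP and 7 of these undetermined. An unadjusted p under 0.05 with 2-fold gave 351, 206 higher and 145 lower, and 316 moved by MPTP, of which 223 were undetermined, 87 away and 3 past control. A bound of 2-fold placed 5 back at control and 0 undetermined. Taking genes moved by MPTP at an unadjusted p under 0.05 with 1.5-fold gave 575, of which 20 were back at control, 548 undetermined, 4 away and 3 past control.

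With the replicate number as a block, 2 passed, 1 higher and 1 lower (Hif3a and Yipf6), and 2 were moved by MPTP, 1 back at control and 1 undetermined. Whether the numbers pair mice is not known, so calls lost under the block were not read as a weaker effect.

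Leaving out 1 mouse at a time, the count was 5 to 20, with 2 to 9 higher and 3 to 11 lower. Genes moved by MPTP were 4 to 17, of which 2 to 9 were back at control, 1 to 8 undetermined and 0 to 7 away, and 0 passed control in each. The count of the 16 genes past the threshold in the delayed experiment was 0 under every alternative run there. Where 1 mouse was left out, the cause of a changed count was not tested beyond the smaller number of mice. Named genes were called or not called as in the main fit in 1816 repeats, most of them repeats of genes not called there. Calls were lost in 125 repeats, all of them of the 16 genes past the threshold, and gained in 28. List medians moved beyond their spread in 49 of 493.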
